A study of Mus musculus with 6 samples.

Results

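The glypicans and syndecans are the main families of membrane-anchored carriers of heparan sulfate. Their 10 mouse genes are Gpc1 to Gpc6 and Sdc1 to Sdc4. These are described here out of 19938 genes that have a probe set of their own on the array. The rule was to take, for each gene, the probe set that names no other gene, chosen by the highest mean over the 6 arrays if there were several. Each of the 10 genes had exactly 1, so their level decided nothing. The families are complete by name, but the differences between these same arrays were known when they were picked, so a count of changed members is a description and not a test of the families. The cells were neural stem/progenitor cells from the lateral ventricle wall of 4 to 6 week-old CD1 mice, an outbred strain, grown as neurospheres (free-floating spheres) in a medium with EGF and FGF. Of 6 samples, 3 were transduced with the empty retroviral vector, which expresses eGFP alone, and 3 with pCMMP-Bmi1, which expresses Bmi1 together with eGFP. All 6 were sorted on eGFP and grown at clonal density, 2000 cells per well, and 300 ng of total RNA of each was hybridized to 1 Affymetrix Mouse Gene ST 1.0 array. The series design describes the 3 samples of a group as independent cultures, and separate mice are not named in the sources used here. The labels name unflagged Bmi1, whereas the paper's text names a FLAG-tagged form for the arrays.

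Both families consist of a core protein at the cell surface to which long, sulfated heparan sulfate chains are attached. Glypicans are tethered by a glycosylphosphatidylinositol (GPI) anchor, whereas syndecans span the membrane and end in a short cytoplasmic tail that binds PDZ-domain and cytoskeletal proteins. The chains hold FGF, Wnt, Hedgehog, Slit and BMP proteins and present them to their receptors, and neural stem/progenitor cells depend on FGF in culture. By sequence, Gpc1, Gpc2, Gpc4 and Gpc6 form a glypican subfamily and Gpc3 and Gpc5 another, and Sdc1 is closest to Sdc3 and Sdc2 to Sdc4.

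Values are robust multi-array average (RMA) expression on the log2 scale, and differences are Bmi1 overexpression minus empty vector. A gene is said to have risen or fallen where its adjusted p was under 0.05 in limma over all 35557 probe sets. Of the 19938 genes, 7.35% passed this test in either direction, 2.98% rose and 4.37% fell. Over all probe sets 5.7% passed, 794 (2.23%) upward and 1231 (3.46%) downward, and after median centring of the arrays 593 rose and 1467 fell. The groups did not overlap for 31.3% of the genes, with Bmi1 higher for 15.3% and lower for 15.9%. The overexpressed gene, Bmi1, read 7.70, 8.40 and 8.31 with the empty vector and 9.18, 8.36 and 8.42 with Bmi1, which overlap (log2 difference 0.52, limma adjusted p = 0.38). The source_name label of every sample gives the other group than its title, transduction and genotype labels, which were followed. With groups taken by title, Epha7 had a log2 difference of -3.82 and Cdkn2a, the classical target of repression by Bmi1, of -1.08 (limma adjusted p = 1.1e-04 and 0.0012). The direction of every difference below follows the titles.

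Of the 10 genes, 2 rose, 3 fell and 5 were not called, where 2.98% of all genes rose and 4.37% fell. Gpc3 and Sdc3 rose, and Gpc4, Sdc2 and Sdc4 fell. In the smaller fits with 1 array left out, the 2 rises and the fall of Gpc4 were called in all 6, and the number of members that fell was 1, or 2 without Bmi1 replicate 3. The median log2 difference over the 10 genes was -0.19 (0.01 over all genes). The median size of the difference without its sign was 0.43 (0.11 over all genes). By the mean over all 6 arrays, every member except Gpc5 was brighter than at least 64.2% of all probe sets. That lowest share is the one of Gpc3, whose mean the Bmi1 arrays raise (4.38 with the empty vector, 6.91 with Bmi1). The medians and shares over all genes include dim genes, whose changes RMA compresses, so they are no yardstick of like level. The groups did not overlap for 31.3% of all genes, with Bmi1 higher for 15.3% and lower for 15.9%. In 8 of the 10 genes the groups did not overlap, with Bmi1 higher in 3 and lower in 5. Taken alone, each of these 8 had p = 0.1 in an exact two-sided permutation test, the smallest value that 3 arrays against 3 allow. The arrays average over all cells of a culture, so fewer cells that express a gene and less of its RNA per cell cannot be told apart.

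**Figure D1:**
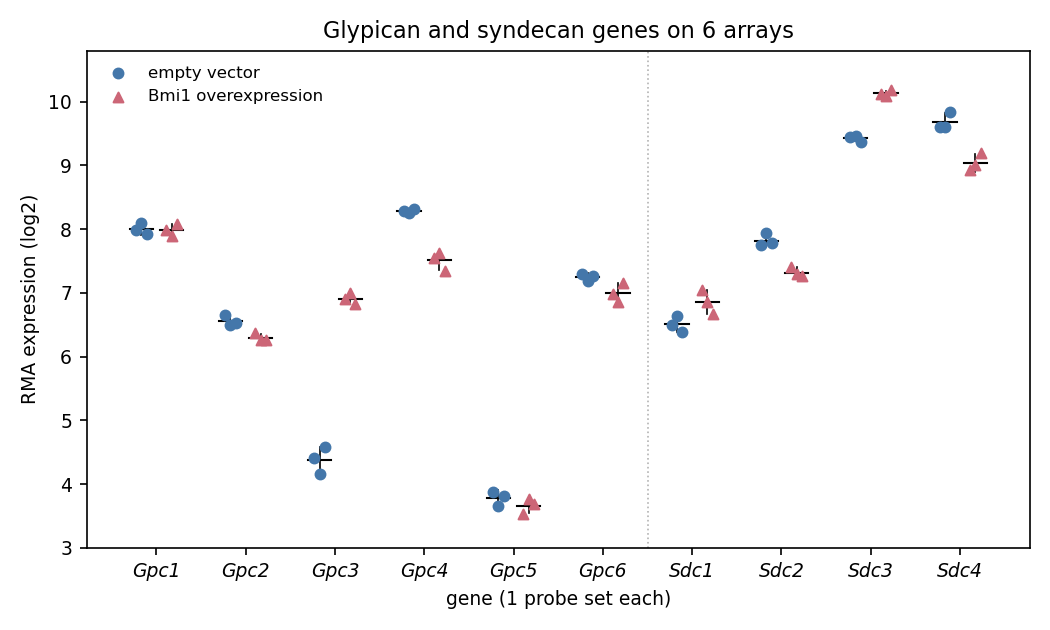
RMA expression on the log2 scale (y axis) of the 10 genes (x axis). Each point is an array, with circles for empty vector, triangles for Bmi1 overexpression, horizontal lines for the mean and vertical lines for the SD of 3 arrays. The groups overlap for Gpc1 and Gpc5 only, and the widest separation is that of Gpc3. Levels of different genes come from different probes and are not comparable.

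Gpc3 had by far the widest separation in either family. It encodes glypican-3, which binds Hedgehog and Wnt proteins, restrains growth during development and is a known oncofetal protein of the liver. Its probe set (10604576) read 4.41, 4.16 and 4.58 with the empty vector and 6.91, 7.00 and 6.83 with Bmi1. The lowest Bmi1 array lay 2.25 above the highest empty vector array on the log2 scale. The mean went from 4.38 ± 0.21 to 6.91 ± 0.08 (SD, n = 3 per group), which is a log2 difference of 2.53 (SE 0.12, 95% confidence interval 2.24 to 2.82, limma adjusted p = 4.9e-04), or about 5.78-fold. Among the 19938 genes this was rank 18 by the size of the difference. The empty vector mean lay near the array medians (4.37 to 4.45), and with no detection calls it is not known whether it was above background, so the fold is approximate. Gpc3 was the only member with a log2 difference of at least 1 in size, a threshold that the methods of the study set, and the only member past the methods' t-test (p under 0.001 and that difference), which 0.844% of all probe sets passed.
The genes with the most similar profile over the 6 arrays, by Euclidean distance after each gene's own mean was subtracted, were Scrn1 (secernin, distance 0.45), Sfrp2 (a secreted Wnt inhibitor, 0.51) and Anxa2 (an annexin, 0.60). They had log2 differences of 2.39, 2.22 and 2.47, and with 6 arrays in 2 groups such likeness reflects mainly a rise of similar size.

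Gpc4, the next protein-coding gene to Gpc3 on the X chromosome, went the other way. Glypican-4 is expressed in neural precursors and, when shed by astrocytes, is known to promote the assembly of excitatory synapses. Its probe set (10604564) read 8.28, 8.25 and 8.31 with the empty vector and 7.55, 7.63 and 7.34 with Bmi1. All 3 Bmi1 arrays lay at least 0.62 below the empty vector arrays. The mean went from 8.28 ± 0.03 to 7.51 ± 0.15 (SD, n = 3 per group), which is a log2 difference of -0.77 (SE 0.09, limma adjusted p = 0.0071), or 1.71-fold lower. The intervals of the neighbouring genes, 2.24 to 2.82 for Gpc3 and -0.99 to -0.55 for Gpc4, lie on opposite sides of 0.

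The regions just upstream of the called members are shown because the Polycomb complex that contains BMI-1 is known to act at CpG-rich promoters, and because the X-linked pair moved in opposite directions. The RefSeq table (GRCm38.p6) held a window for 7 of the 10 genes, and Gpc1, Gpc6 and Sdc2 had no entry. The 250 bases before the annotated start are printed 5′ to 3′ on the gene's strand, with capitals for the GC box GGGCGG on either strand (CCGCCC on the other), which holds a CpG itself.
Gpc3, chrX:52613975-52614224, minus strand: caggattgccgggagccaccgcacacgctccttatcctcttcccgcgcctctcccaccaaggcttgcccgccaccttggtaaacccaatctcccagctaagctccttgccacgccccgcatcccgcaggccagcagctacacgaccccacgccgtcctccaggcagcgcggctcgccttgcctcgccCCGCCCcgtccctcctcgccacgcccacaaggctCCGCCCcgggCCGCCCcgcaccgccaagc
Gpc4, chrX:52164924-52165173, minus strand: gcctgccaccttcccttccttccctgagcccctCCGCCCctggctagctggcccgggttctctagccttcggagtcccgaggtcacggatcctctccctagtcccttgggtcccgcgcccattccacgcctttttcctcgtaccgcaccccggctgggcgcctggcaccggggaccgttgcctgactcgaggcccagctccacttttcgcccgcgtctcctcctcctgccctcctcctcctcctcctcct
Sdc3, chr4:130792287-130792536, plus strand: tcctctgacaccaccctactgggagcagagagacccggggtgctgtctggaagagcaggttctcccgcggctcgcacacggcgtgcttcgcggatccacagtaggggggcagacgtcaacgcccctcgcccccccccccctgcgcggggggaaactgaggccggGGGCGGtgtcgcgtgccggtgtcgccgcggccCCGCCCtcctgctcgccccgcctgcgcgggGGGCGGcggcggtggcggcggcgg
Sdc4, chr2:164443189-164443438, minus strand: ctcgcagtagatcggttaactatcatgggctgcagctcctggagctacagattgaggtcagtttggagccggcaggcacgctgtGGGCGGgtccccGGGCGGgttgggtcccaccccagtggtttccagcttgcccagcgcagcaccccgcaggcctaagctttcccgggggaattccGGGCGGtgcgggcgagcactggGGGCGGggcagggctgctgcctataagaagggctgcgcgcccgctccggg
CpG dinucleotides numbered 25 for Gpc3, 18 for Gpc4, 32 for Sdc3 and 19 for Sdc4, and 19, 12 and 10 for the uncalled Gpc2, Gpc5 and Sdc1. The median over 32851 RefSeq windows of the same length was 6. All 7 windows thus held more CpG than the median window, called or not. The share of windows with fewer CpG ran from 62.2% for Sdc1 to 95.4% for Sdc3, with 66.5% for Gpc5 and 78.3% for Gpc4. GC boxes numbered 3 for Gpc3, 1 for Gpc4, 3 for Sdc3, 4 for Sdc4, 3 for Gpc2, 1 for Gpc5 and 3 for Sdc1, and 32.7% of all windows held at least 1. These letters describe the windows and say nothing on what binds there.

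The remaining glypicans had log2 differences between -0.26 and -0.02, none of which passed the test. Gpc2, a glypican of developing neurons, read 6.65, 6.50 and 6.53 with the empty vector and 6.37, 6.26 and 6.26 with Bmi1. The groups did not overlap, and the log2 difference was -0.26 (95% confidence interval -0.45 to -0.08, limma adjusted p = 0.12). With only probe sets of a mean of at least 5 or of at least 6 tested, it passed (limma adjusted p = 0.029 and 0.019).
Gpc6, the closest relative of Gpc4, read 7.30, 7.18 and 7.26 with the empty vector and 6.98, 6.86 and 7.15 with Bmi1. Its groups were separated by 0.03, and its log2 difference was -0.25 (95% confidence interval -0.48 to -0.02, limma adjusted p = 0.21). Gpc1, whose product binds Slit and FGF2, read 7.98, 8.10 and 7.92 with the empty vector and 7.98, 7.90 and 8.08 with Bmi1. Its groups overlapped fully, and the interval of its log2 difference, -0.22 to 0.18, bounds a change in either direction.
Gpc5, next to Gpc6 on chromosome 14 and the relative of Gpc3, read 3.88, 3.65 and 3.82 with the empty vector and 3.53, 3.77 and 3.69 with Bmi1, which overlap. It was a dim probe set, brighter than 39.5% of all probe sets. Its log2 difference was -0.12 (95% confidence interval -0.36 to 0.12, limma adjusted p = 0.58), and on so dim a probe set a change can be missed. The table holds no detection calls. Within the subfamily of Gpc1, Gpc2, Gpc4 and Gpc6 all 4 differences were below 0, that of Gpc1 only by 0.02, and it turned to 0.04 after repeated quantile normalization. Only Gpc4 of these was called. The difference of Gpc5, of the other subfamily, was also below 0, as were those of 9350 of all 19938 genes.

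**Figure D2:**
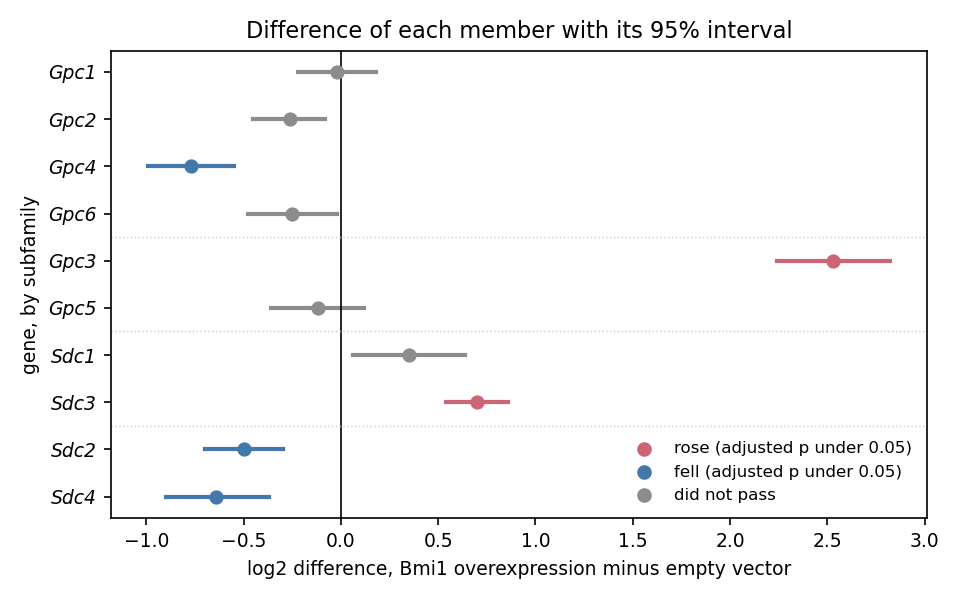
Log2 difference between Bmi1 overexpression and empty vector (x axis) with its 95% confidence interval from limma for each gene (y axis), ordered by subfamily, in red for genes that rose, blue for genes that fell and grey for genes that did not pass the test. Gpc3 lies at 2.53 and the other members between -0.77 and 0.70, with Sdc1 and Sdc3 above 0 and Sdc2 and Sdc4 below.

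All 4 syndecans had groups that did not overlap, as had 31.3% of all genes. Sdc3 rose, Sdc2 and Sdc4 fell, and Sdc1 was not called. Sdc3, the syndecan typical of the nervous system and a receptor of pleiotrophin, had the tightest groups of the 4. Its probe set (10508651) read 9.45, 9.47 and 9.37 with the empty vector and 10.12, 10.09 and 10.18 with Bmi1. Every Bmi1 array lay at least 0.62 above every empty vector array. The mean went from 9.43 ± 0.05 to 10.13 ± 0.04 (SD, n = 3 per group), which is a log2 difference of 0.70 (SE 0.07, limma adjusted p = 0.0033), or 1.62-fold higher.
Sdc1, known as CD138 and a regulator of Wnt signaling, read 6.50, 6.64 and 6.38 with the empty vector and 7.05, 6.85 and 6.67 with Bmi1. The nearest arrays of the groups were 0.03 apart, and its log2 difference was 0.35 (95% confidence interval 0.06 to 0.64). It missed the threshold (limma adjusted p = 0.17), and it passed with only probe sets of a mean of at least 6 tested (limma adjusted p = 0.040).
Sdc4, a focal adhesion syndecan that works with integrins on fibronectin and activates protein kinase C alpha, read 9.60, 9.61 and 9.84 with the empty vector and 8.93, 9.00 and 9.20 with Bmi1. The groups were 0.39 apart. Its probe set (10489484) went from 9.68 ± 0.14 to 9.04 ± 0.14 (SD, n = 3 per group), which is a log2 difference of -0.64 (SE 0.11, limma adjusted p = 0.024), or 1.56-fold lower.
Sdc2, a syndecan of mesenchymal cells and of dendritic spines, read 7.75, 7.94 and 7.79 with the empty vector and 7.41, 7.30 and 7.26 with Bmi1. The groups were 0.34 apart. Its probe set (10423548) went from 7.82 ± 0.10 to 7.32 ± 0.08 (SD, n = 3 per group), which is a log2 difference of -0.50 (SE 0.08, limma adjusted p = 0.021), or 1.42-fold lower.
Both falls were near the threshold. That of Sdc2 no longer passed when any 1 of the 6 arrays was left out (limma adjusted p = 0.051 to 0.079). That of Sdc4 was kept only without Bmi1 replicate 3 (limma adjusted p = 0.035) and was lost without any of the other 5 arrays (limma adjusted p = 0.063 to 0.087).

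**Figure D3:**
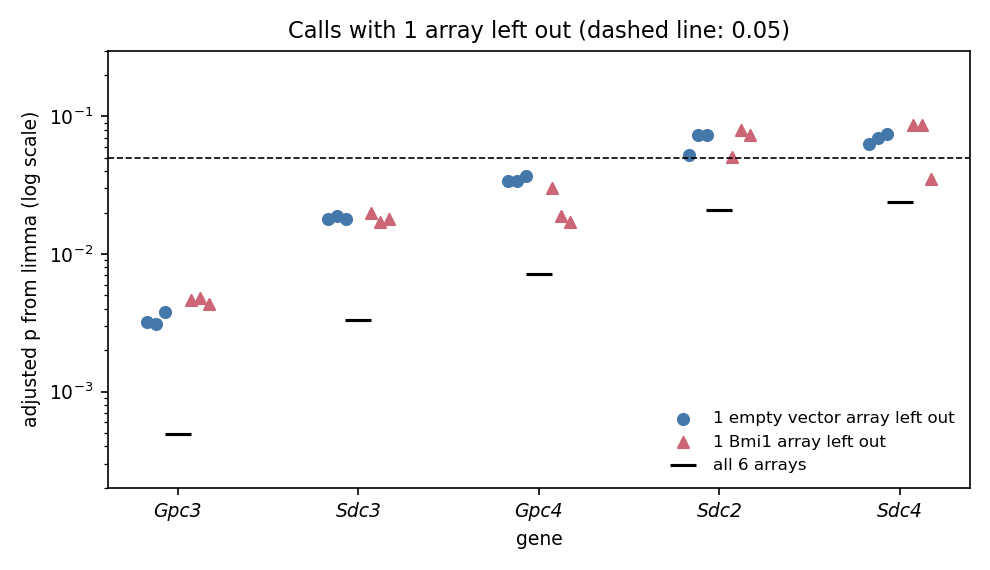
Adjusted p from limma (y axis, log scale) of the 5 members that passed the test (x axis), with horizontal dashes for all 6 arrays, circles for fits without 1 empty vector array and triangles for fits without 1 Bmi1 array. Gpc3, Sdc3 and Gpc4 stay below the dashed line at 0.05 in all 6 such fits (up to 0.0048, 0.020 and 0.037), whereas Sdc2 crosses it in 6 and Sdc4 in 5.

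The genes that act on the same chains moved in both directions. For scale, 7.35% of all genes passed the test in either direction. The lists were chosen with earlier results of these data known, so their counts are descriptions. The other proteoglycan core proteins that carry heparan sulfate, 7 genes that include agrin (Agrn), perlecan (Hspg2) and collagen XVIII (Col18a1), gave no call by limma over all probe sets or by the methods' t-test after Benjamini-Hochberg adjustment. Of these 7, 3 had an unadjusted p under 0.05 from limma, as had 4526 of all 19938 genes. In limma with only probe sets of a mean of at least 5 tested, 1 rose, and with a mean of at least 6, 1 rose and 1 fell. Under these filters more of all probe sets passed as well, although fewer were tested. Their log2 differences lay between -0.41 and 0.31.
Of 30 measured genes of chain assembly and sulfation, 2 rose, 4 fell and 24 did not pass, with a median log2 difference of -0.02. With 1 array left out, 1 rose and 0 to 2 fell (0 to 2 and 0 to 5 over all settings). Ugdh, which makes the UDP-glucuronic acid that chains are built from, rose by 0.80, from 7.89 ± 0.12 to 8.69 ± 0.10 (SD, n = 3 per group, limma adjusted p = 0.0061). Of the falls, Extl3, a transferase that starts and elongates the chain, had a log2 difference of -0.54, Hs6st2, a 6-O-sulfotransferase, of -0.83, and Hs3st1, a 3-O-sulfotransferase, of -0.74. Hs3st1 went from 3.91 to 3.17, which is dim on both sides. With 1 array left out, Ugdh was called in all 6 fits. The call of Extl3 was kept only without empty vector replicate 3 or Bmi1 replicate 2, that of Hs6st2 only without replicate 1 of either group and that of Hs3st1 only without empty vector replicate 2 (limma adjusted p up to 0.057, 0.081 and 0.095).
Of 16 genes that trim chains, shed core proteins or cleave the GPI anchor, 1 rose, 2 fell and 13 did not pass, and with 1 array left out 0 to 1 rose and 1 fell (0 to 1 and 0 to 2 over all settings). Sulf2 and Sulf1 are extracellular sulfatases that remove 6-O-sulfates from finished chains. Sulf2 fell from 10.56 ± 0.09 to 9.93 ± 0.02 (SD, n = 3 per group), which is a log2 difference of -0.63 (limma adjusted p = 0.0059). Sulf1 fell from 4.73 ± 0.13 to 4.08 ± 0.20 (SD, n = 3 per group), which is a log2 difference of -0.65 (limma adjusted p = 0.037), and was not called without any 1 of the 6 arrays (up to 0.12). Mmp14, a membrane-bound metalloprotease that can shed syndecan-1, rose by 1.19 (limma adjusted p = 0.048). Its empty vector arrays spread over 7.89, 8.22 and 8.91, and it was called in 1 of the 6 fits with an array left out, that without empty vector replicate 3 (limma adjusted p = 0.0085).

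Partners of the core proteins were examined next, in lists chosen in the same way (7.35% called over all genes). Of 14 measured cytoplasmic partners of syndecans, 1 rose, 1 fell and 12 did not pass. The number that fell was 0 to 1 with 1 array left out and 0 to 6 over all settings (5 with a mean of at least 5, 6 with a mean of at least 6). The 7.35% belongs to the unfiltered fit, and under these filters more of all probe sets fell although fewer were tested. Ezr encodes ezrin, which links the syndecan-2 tail to actin. It rose from 6.48 ± 0.11 to 7.65 ± 0.21 (SD, n = 3 per group), which is a log2 difference of 1.17 (limma adjusted p = 0.0046). Prkca, the kinase that syndecan-4 activates, had a log2 difference of -0.48 (limma adjusted p = 0.037), which was kept only without Bmi1 replicate 3 and lost without any of the other 5 arrays (up to 0.13). Sdcbp, which encodes the PDZ adaptor syntenin, read 9.84 in both groups (log2 difference 0.00, 95% confidence interval -0.17 to 0.17).
Of 27 secreted proteins that bind heparan sulfate, 2 rose, 4 fell and 21 did not pass, and with 1 array left out 1 to 2 rose and 2 to 3 fell (0 to 3 and 0 to 5 over all settings). Slit2, a guidance cue for neuroblasts that binds glypican-1, had the widest difference of the list. It read 5.26, 5.68 and 5.63 with the empty vector and 3.94, 3.74 and 3.61 with Bmi1, a log2 difference of -1.76 (limma adjusted p = 0.0021). Wnt5a, a ligand that glypicans help to present, fell from 9.71 ± 0.03 to 8.77 ± 0.19 (SD, n = 3 per group), which is a log2 difference of -0.93 (limma adjusted p = 0.0060). Bmp2 had a log2 difference of -0.74 and ended at 3.05. Its call was lost without empty vector replicate 1, Bmi1 replicate 2 or Bmi1 replicate 3 (limma adjusted p = 0.053, 0.054 and 0.053). Hhip, which encodes a Hedgehog-binding inhibitor, rose by 0.96, from a dim 3.59 (limma adjusted p = 0.014).
Of 34 receptors and partner proteins, 4 rose, 6 fell and 24 did not pass. With 1 array left out 1 to 3 rose and 3 to 4 fell, and over all settings 1 to 7 rose and 1 to 8 fell. The postsynaptic proteins Lrrtm3 and Lrrtm4, known to bind heparan sulfate proteoglycans, went in opposite directions. Lrrtm3 rose from 4.40 ± 0.14 to 6.02 ± 0.14, and Lrrtm4 fell from 5.32 ± 0.20 to 3.71 ± 0.15 (SD, n = 3 per group), log2 differences of 1.62 and -1.62 (limma adjusted p = 0.0011 and 0.0019). Ptprd, a receptor phosphatase of the family that binds heparan sulfate, had a log2 difference of -0.98, and Cd81, a tetraspanin known to bind glypican-3, of -0.73 (limma adjusted p = 0.0011 and 0.0051). Of all 27 pathway genes called, 10 were called in each of the 6 fits with an array left out, namely Ugdh, Sulf2, Ezr, Slit2, Wnt5a, Hhip, Lrrtm3, Lrrtm4, Ptprd and Cd81, and 6 in none.

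**Figure D4:**
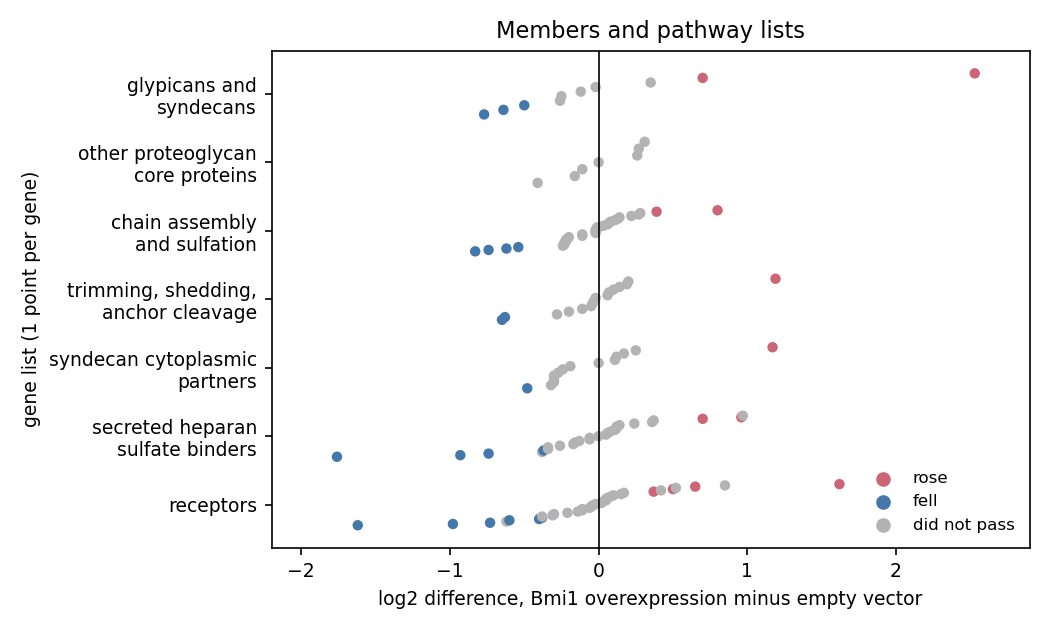
Log2 difference between Bmi1 overexpression and empty vector (x axis) of every measured gene of the glypican and syndecan families and of 6 pathway lists (y axis), with 1 point per gene, red for genes that rose, blue for genes that fell and grey for genes that did not pass the test. Every list but that of other core proteins holds calls on both sides of 0, and Gpc3 lies farthest to the right.

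Markers of some cell types also differed between the groups, beside 7.35% of all genes that passed the test. The mean level of 9 neural stem and progenitor markers was 9.01 to 9.09 on the empty vector arrays and 9.36 to 9.48 on the Bmi1 arrays. Of these, 3 rose, Prom1, Hes5 and Sox9 (log2 differences 1.58, 1.05 and 0.62), and carried most of the rise of the mean. The other 6 were not called. The list had 6 positive and 3 negative differences (Olig2 -0.19, Nes -0.05 and Vim -0.02) and a median of 0.22. The mean level of 7 astrocyte markers was 7.06 to 7.20 with the empty vector and 7.64 to 7.91 with Bmi1, with 3 that rose. The median log2 difference of the astrocyte list was 0.13, and its members ran from -0.38 (S100b) and -0.31 (Slc1a3), neither called, to 3.04 (Ndrg2), which carried most of the rise of the mean. Of 7 oligodendrocyte lineage markers 2 rose, and the mean level of all 7 was 5.31 to 5.37 with the empty vector and 5.67 to 5.96 with Bmi1. Of 7 neuroblast and neuron markers 2 rose and 1 fell, and the mean level of all 7 was 5.14 to 5.26 and 5.41 to 5.52. The mean level of 12 pericyte and fibroblast markers was 5.03 to 5.11 and 4.65 to 4.69, with 3 that fell, Twist1, Pcolce and Acta2 (log2 differences -2.40, -1.98 and -1.34). The other 9 were not called, Cspg4 (also in the oligodendrocyte lineage list), Dcn, Col1a2 and Col1a1 with differences of 0.38, 0.20, 0.18 and 0.15, and the list had 6 positive and 6 negative differences and a median of 0.00. Among the members, Gpc4, Sdc2 and Sdc4 fell and Gpc3 and Sdc3 rose, and a link to any marker list was not tested. No marker of microglia (7), endothelium (6) or ependyma (6) passed limma or the methods' t-test after adjustment, with 0, 1 and 1 at an unadjusted p under 0.05 from limma. Over all 19938 genes, 4526 had such an unadjusted p. Microglial markers averaged 3.21 to 3.30 on all arrays. Ependymal markers averaged 4.11 to 4.17 with the empty vector and 4.00 to 4.06 with Bmi1, and endothelial markers 4.06 to 4.10 and 4.14 to 4.19, in both cases without overlap. The part of these markers in the differences of the glypicans and syndecans was not tested.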

How the data were processed

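RNA of 6 neurosphere samples was measured, 1 array each. Deposited values are log2 expression per probe set, which the authors computed by RMA (background correction, quantile normalization, probe summary) in Affymetrix Expression Console according to the submitters' processing notes. For its version, library file and genome build: not given in the sources used here. Titles, transduction and genotype fields gave the groups.

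Of 35557 probe sets, 21789 carry 1 gene name in the platform annotation and 1621 carry several. Where a gene had several of its own, that with the highest mean was used. The 10 members matched RefSeq by Entrez identifier. Of 192 listed symbols, 187 had a probe set. Members and lists were chosen with earlier results of these data known. Named list genes were up to 4 per pathway list with the smallest adjusted p; Twist1 and Pcolce came from the rule for markers, and the choice of Sdcbp, Agrn, Hspg2, Col18a1 and the other markers named was made with their values in view.

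The main test was two-sided, by lmFit and eBayes of limma 3.58.1 under R 4.3.3, unfiltered and adjusted after Benjamini-Hochberg for all probe sets. The code was tested on simulated data. RMA compresses changes of dim probe sets, and 3 arrays per group limit the precision. Alternatives were the t-test of the study's methods, a Welch form of it, filters, 1 or averaged probe sets per gene, scaling, variance prior, array weights, a replicate block and each array left out. Figures used matplotlib 3.10.9.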

Additional observations from a re-analysis of the deposited data

How the results depend on the processing

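Under every alternative in which they were tested, the rises of Gpc3 and Sdc3 and the fall of Gpc4 kept their direction, with log2 differences of 2.42 to 2.63, 0.64 to 0.73 and -0.83 to -0.69. Gpc3 lost its call only in the Welch form of the methods' t-test (adjusted p = 0.065), which called 1 rise (Sdc3) and 0 falls among the members. The methods' t-test at its own thresholds called 1 rise (Gpc3) and 0 falls, and after Benjamini-Hochberg adjustment 2 rises and 1 fall (adjusted p = 0.055 for Sdc2 and 0.081 for Sdc4). With 1 array left out, 2 members rose in each fit and 1 to 2 fell. Filters at a mean of at least 5 or 6 gave 4 falls, and under them more of all probe sets fell as well. Gpc1, not called in any setting, turned from -0.02 to 0.04 with repeated quantile normalization and lay between -0.06 and 0.03 with 1 array left out. Gpc5 (both filters) and Gpc3 (a mean of at least 6) were not tested under those filters. Gpc3 passed the filter at 5 only through its Bmi1 arrays (group means 4.38 with the empty vector and 6.91 with Bmi1). Its fit under that filter is therefore no support for its rise. Averaging probe sets left the members as they were, since each has 1.

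Samples with the same replicate number showed no shared deviation (correlation of deviations 0, -0.032 and -0.018 for numbers 1, 2 and 3). These values cannot show whether such samples were prepared together. With the replicate block, 2 members rose and 2 fell, Sdc2 no longer passed (adjusted p = 0.097), and 306 probe sets rose and 544 fell in place of 794 and 1231. With 1 array left out, 332 to 455 rose and 642 to 820 fell. Filters, which left fewer probe sets to test, gave 1544 and 1346 rises and 1880 and 1847 falls. Rises and falls numbered 1303 and 1759 for eBayes with trend and robust, and 492 and 885 for the methods' t-test after adjustment. At its own thresholds that t-test gave 100 and 200, and its Welch form gave 71 and 139. Median centring moved the median log2 difference of all probe sets from 0.018 to -0.034. The causes of these changes were not tested. Depth has no counterpart on arrays. A mean under 4 in at least 1 group (Gpc5, Hs3st1, Bmp2, Hhip, Slit2, Lrrtm4, Prom1 and Dcn) limits what the size of a difference there can show. The empty vector mean of Gpc3 sets the same limit.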
